A study of Mus musculus with 18 samples.

Results

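The genes of cell junctions and of the keratin skeleton were followed in embryonic stem cells (ESCs) that lacked Zeb2 and in control (Ctrl) ESCs while both were led towards the neural fate. Genes were taken by name from the deposited expression table: claudins, keratins, tight junction plaque proteins (Tjp genes), plakophilins, desmogleins, desmocollins and connexins, together with Ocln, Dsp, Jup, Esrp1, Esrp2, Marveld2, Marveld3, F11r, Cgn, Crb3, Grhl2 and St14. The table held 41 such genes among its 10965 genes, where the GENCODE M21 annotation has 130 protein-coding genes that match the same names. The others are not analysed here. A gene entered the deposited table with at least 5 TPM in at least 3 libraries and after the 20% of genes that varied least had been removed by the authors, so a gene high in 1 group alone could enter because of that group, and counts over the 41 are read as descriptions. The 41 genes are 8 claudins, 5 other membrane proteins of the tight junction, 4 proteins of the tight junction plaque, 5 desmosome genes, 7 connexins, 6 type I keratins, 2 type II keratins and 4 regulators. Of these, 27 had a mean of at least 10 TPM, a level corrected for transcript length and for library size.

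Ctrl cells carried Zeb2 fl/fl, that is 2 intact alleles with loxP sites, and Zeb2 KO cells carried Zeb2 -/-, both of the CD1 strain. At d0 both were ESCs in N2B27 with LIF and the inhibitors PD0325901 and CHIR99021, the 2i + LIF condition, for which the labels and the study's methods give different doses. They were then grown as embryoid bodies (EBs) in 15% serum until d4, when 500 nM retinoic acid in N2B27 replaced it, and were collected at d4 and d6 of neural differentiation (ND). Each genotype and day had 3 libraries, 18 in all, described as biological replicates, but the sources do not say which of the derived KO and Ctrl lines each came from, so the p-values measure the spread between these libraries.

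Tight junctions seal the space between epithelial cells. Claudins form their strands, occludin and the MARVEL proteins accompany them, and the plaque proteins tie them to actin. Desmosomes anchor keratin filaments to the membrane and give an epithelium its strength, gap junctions built of connexins let small molecules pass between neighbours, and keratins always assemble from a type I and a type II partner. ESCs and the early epiblast are themselves epithelial, and Zeb2, a zinc finger transcription factor that binds CACCT-containing sequence, is known as a repressor of epithelial genes such as Cdh1 in other cell types.

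Reads on the tabulated genes numbered 9622622 to 15617675 per library (median 12131165). Zeb2 itself rose in Ctrl from 0.129 ± 0.00754 TPM at d0 to 7.66 ± 0.138 at d6 and in KO from 0.0216 ± 0.00526 to 0.681 ± 0.0763 (mean ± SD, n = 3). At d6 the summed level of 10 pluripotent and epiblast markers spanned 4045 to 4424 TPM in KO and 1041 to 1194 in Ctrl, and that of 11 neural markers spanned 101 to 121 TPM in KO and 530 to 609 in Ctrl. The part of these differences in the results given here was not tested. RNA came from whole cultures, in which fewer cells of a type and less RNA per cell cannot be told apart.

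The junction and keratin genes differed between KO and Ctrl in both directions. Levels were compared with limma on log2(TPM + 1), and calls used the 0.01 level of the p-value adjusted by Benjamini-Hochberg across the whole table. At d0, 6 of the 41 genes were higher in KO and 7 were lower, against 10.6% and 16.4% of all genes. At d4, 12 were higher and 14 lower (26 in either direction), against 12.7% and 32.7% (45.5%). At d6, 17 were higher and 14 lower, against 17.9% and 34.3%. The lower shares were thus close to the background on every day, while 29.3% of the genes were higher at d4 and 41.5% at d6. The median log2 difference of the 41 genes on the 3 days was -0.07, -0.10 and 0.42, beside -0.07, -0.16 and -0.14 over the whole table. Of the 41 genes, 12 were higher at both d4 and d6 (Cldn4, Cldn5, Cldn6, Cldn7, Ocln, Marveld3, Crb3, Gja1, Krt17, Grhl2, Esrp1 and St14). Another 12 were lower at both (among them Cldn9, Cldn12, F11r, Dsp, Dsc2, Gjb5, Gjc1, Krt7, Krt19 and Krt20). 5 genes, Cgn, Dsp, Krt17 and Pkp2 among them, were called in opposite directions on different days, and 6 genes were called on none. The d0 calls of Dsp, Krt17 and Pkp2 were lost under at least 1 of the alternative settings given below. Shares over all genes were not counted for calls joined across days, so these joint counts are descriptions only. The KO and Ctrl libraries did not overlap for 25, 34 and 31 of the 41 genes at d0, d4 and d6, against 51.5%, 65.7% and 63.7% of all genes. At d4, 20 of them lay below Ctrl in this way, where the whole table had 45.7%.

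**Figure D1:**
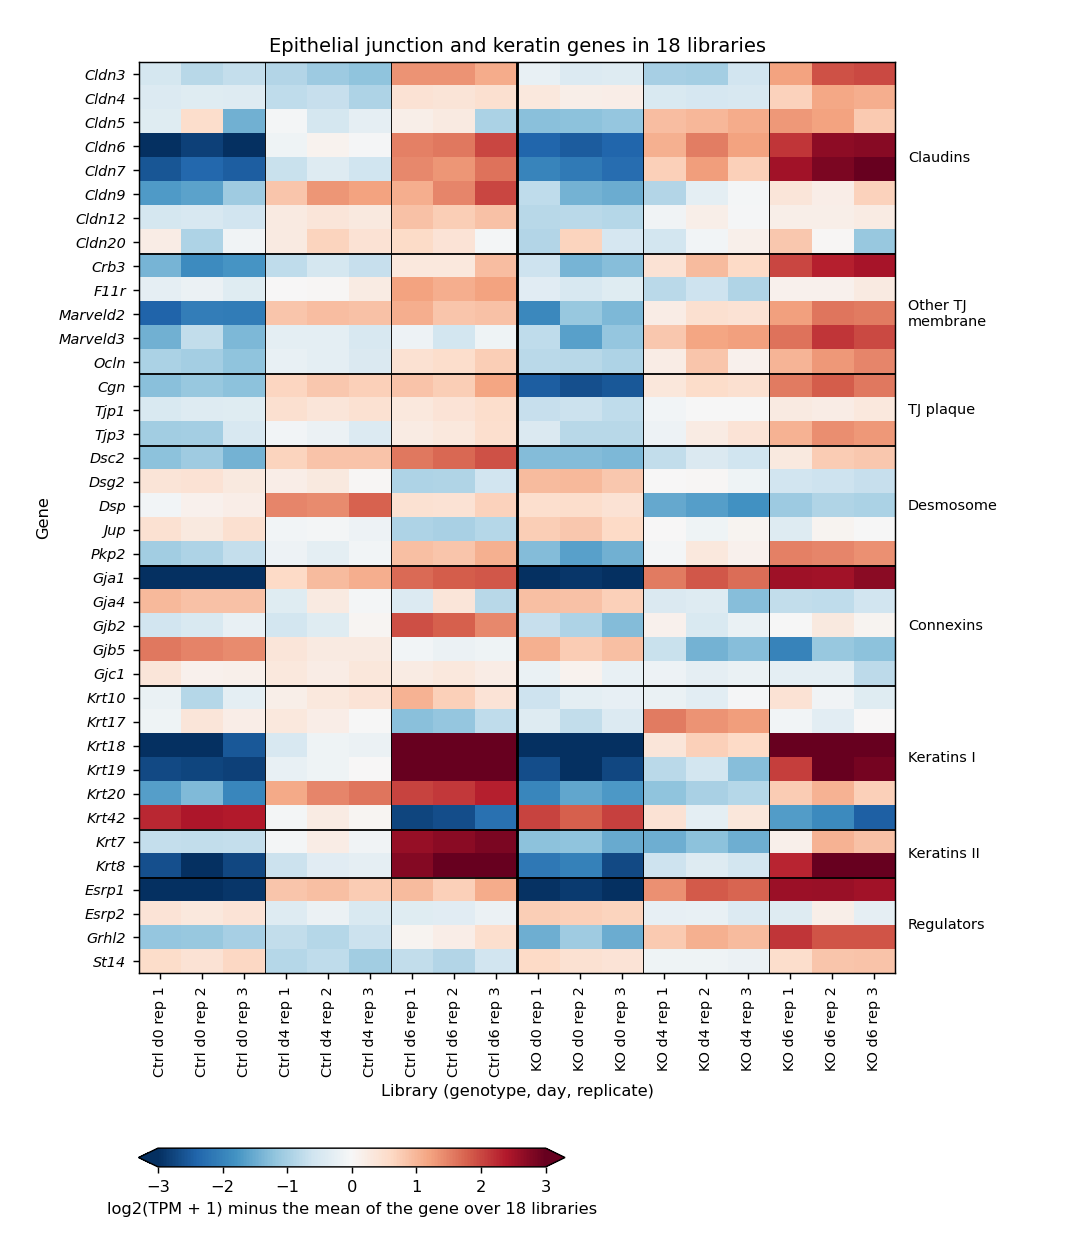
Level of 38 of the 41 genes (rows, grouped by role) in each of the 18 libraries (columns), as log2(TPM + 1) minus the mean of the gene over all libraries, with red above and blue below that mean and colours saturated beyond 3. Claudins 6 and 7, Gja1, Esrp1, Krt8, Krt18 and Krt19 rose with time in both genotypes, Krt42 fell in both, and Dsp at d4 was high in the 3 Ctrl libraries and low in the 3 KO libraries.

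The counts moved with the scale. Rescaling each library by median ratios brought the median difference of all genes from -0.16 to 0.00 at d4 and from -0.14 to 0.01 at d6. It gave 15 higher and 10 lower genes at d4, against 21.0% and 21.3% of all genes. At d6 it gave 20 and 13, against 25.6% higher and 25.6% lower. Quantile normalization gave 15 and 10 at d4 (19.4% and 20.8% of all genes) and 21 and 11 at d6 (25.6% and 26.9%). Subtracting the median of each gene's chromosome in each library gave 8 higher and 3 lower at d0 (9.39% and 12% of all genes), 15 and 10 at d4 (20.7% and 21.4%) and 21 and 13 at d6 (26.1% and 25.2%). The voom method on read counts recovered from the TPM values gave 15 and 12 at d4 (18.7% and 26.3%) and 20 and 13 at d6 (22.7% and 30.5%). At d0 the genes of chromosomes 8 and 12 had a median difference of 0.33 and 0.36, and Esrp2 and Marveld3 lie on chromosome 8.

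**Figure D2:**
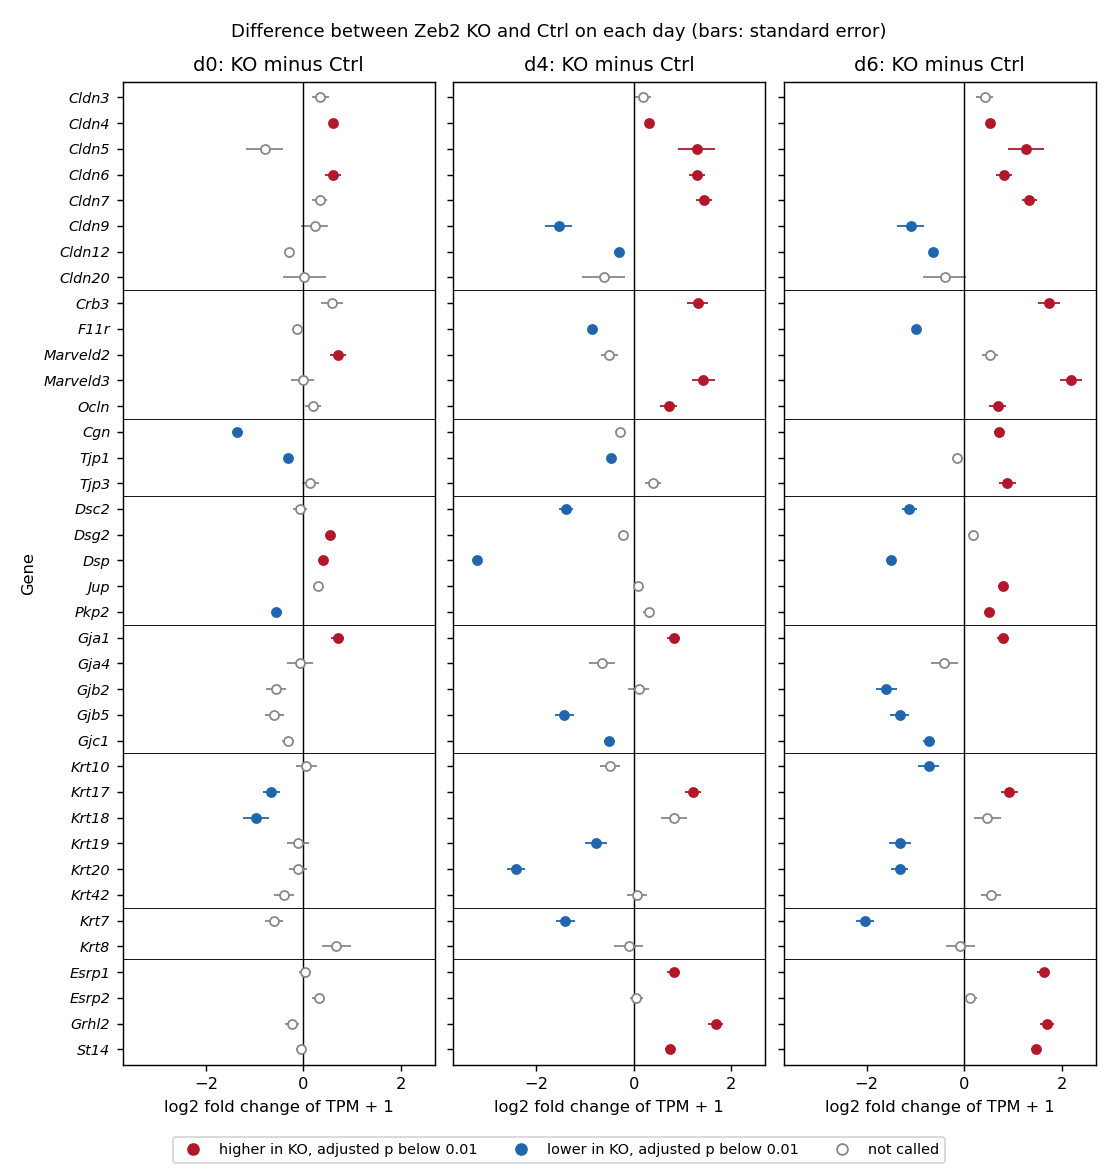
Difference between KO and Ctrl on each day (x axis, log2 fold change of TPM + 1, bars are standard errors) for the same 38 genes (y axis), filled red where called higher in KO, filled blue where called lower and open where not called. The regulators and most claudins lie to the right at d4 and d6, the connexins other than Gja1 lie to the left at d6, and Dsp at d4 lies farthest left.

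The DNA before the RefSeq starts of these genes was searched for CACCTG, the longer form of the sequence bound by Zeb2 and by other E-box proteins, on both strands (CAGGTG on the other). Promoter sequence from RefSeq (GRCm38.p6) was held for 26 of the 41 genes, and the 250 bases before each start were read. The motif was present in 12 of the 26 (46.2%), beside 19.4% of 27025 genes with a promoter and 19.1% of the 7219 of them in the expression table. It was present in 6 of the 10 genes higher in KO at d6, 4 of the 8 lower and 2 of the 8 not called. Only Crb3, Cldn7 and Ocln, all higher in KO at d4 and d6, carried it more than once before a single start, as 2.39% of all genes did. The windows of the 6 higher genes are printed to show how the motif lies, with those of F11r and Krt7 as 2 genes that were lower. Each is 30 bases, 5′ to 3′ on the strand of the gene, with the motif in capitals.
Crb3, chr17:57062071-57062100 (+): cccctgtgcttaCACCTGctcatttccgcc
Crb3, chr17:57062126-57062155 (+): gggttcccgttaCAGGTGctctggcggcgc
Crb3, chr17:57062182-57062211 (+): ctcagccaggctCAGGTGcacaagccggaa
Cldn7, chr11:69965312-69965341 (+): tttcttcctcttCACCTGgacgaggagggg
Cldn7, chr11:69965352-69965381 (+): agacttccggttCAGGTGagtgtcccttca
Ocln, chr13:100552549-100552578 (-): ctaggggctcggCAGGTGggtcccagcgca
Ocln, chr13:100552694-100552723 (-): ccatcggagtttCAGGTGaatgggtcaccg
Cldn6, chr17:23679260-23679289 (+): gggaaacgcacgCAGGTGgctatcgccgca
Cldn4, chr5:134946931-134946960 (-): ctttaactgcagCACCTGtggccgcccttt
Tjp3, chr10:81291267-81291296 (-): cacaaaccctccCACCTGcaggccggcctc
Tjp3, chr10:81291672-81291701 (-): gtcacaaggggtCAGGTGtacagacaggga
F11r, chr1:171437427-171437456 (+): agttcggggttgCACCTGcgtacggtgagt
Krt7, chr15:101412347-101412376 (+): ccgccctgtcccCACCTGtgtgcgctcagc
The motifs of Crb3 began 118, 63 and 7 bases before its start and those of Cldn7 97 and 57 bases before. These are starts of RefSeq transcripts. Those used for Crb3, Krt7 and Cldn7 lie 3096, 1360 and 642 bases inside the gene as GENCODE M21 annotates it. Those of the other printed windows lie at most 314 bases inside. The motifs printed for these 3 genes, for Cldn6 and Ocln and in the first window of Tjp3 therefore lie within the annotated gene. Those of Cldn4 and F11r and in the second window of Tjp3 lie before its first annotated start. The windows of Tjp3 belong to 2 different starts. Only the first window of Crb3, the second of Tjp3 and that of F11r lay outside every exon of the GENCODE M21 annotation. These matches describe the sequence and were not tested for binding.

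Claudin mRNA rose during ND in both genotypes and reached a higher sum without Zeb2. The 8 claudins together came to 292 ± 4.83 TPM (Ctrl) against 431 ± 22.5 (KO) at d0, to 372 ± 25.1 against 628 ± 62.7 at d4, and to 1039 ± 95.9 against 1672 ± 311 at d6 (mean ± SD, n = 3). At d6, 4 claudins were higher in KO, 2 were lower and 2 were not called, where 17.9% of all genes were higher and 34.3% lower.

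Cldn6, a claudin of embryonic epithelia, rose most of the claudins in Ctrl. Its TPM in the Ctrl libraries was 14.4, 18.3 and 13.9 at d0, 122, 144 and 130.3 at d4 and 383, 400.1 and 536 at d6. In KO it was 25.1, 22.7 and 24.8 at d0, 282, 393 and 311 at d4 and 599, 859 and 891 at d6. Every KO library was above every Ctrl library of its day. KO exceeded Ctrl on the log2 scale by 0.62 ± 0.16 (± SE, as for all log2 differences given here) at d0, 1.30 ± 0.16 at d4 and 0.82 ± 0.16 at d6, with adjusted p of 0.00622, 5.79e-06 and 0.000314 (limma). At d0 the call for Cldn6 was lost with quantile normalization, with voom and with a pseudocount of 5, the number added to TPM before the logarithm. The d0 call for Cldn6 was also lost without Ctrl d0 replicate 1 or 3 or KO d0 replicate 1, 2 or 3 (log2 difference 0.54 to 0.66, limma adjusted p at most 0.0315). Its share of summed claudin TPM rose in Ctrl from 5.31 ± 0.734% at d0 to 42.1 ± 4.03% at d6 and in KO from 5.62 ± 0.236% to 46.7 ± 1.12%, with 35.5 ± 1.80% in Ctrl and 52.1 ± 3.79% in KO at d4.

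Cldn7, an epithelial claudin found at low level in ESCs, also rose in both genotypes. It had 1.88, 2.32 and 2.03 TPM in Ctrl and 3.29, 2.91 and 2.46 in KO at d0. At d4 it had 9.58, 12 and 10.1 in Ctrl and 26.7, 39.6 and 26.6 in KO. At d6 it had 44.7, 41.2 and 51.4 in Ctrl and 96.3, 119 and 140.0 in KO. The groups did not overlap on any day and were called different at d4 and d6, where the log2 difference was 1.45 ± 0.16 (adjusted p = 1.88e-06, limma) and 1.34 ± 0.16 (adjusted p = 2.39e-06). The difference at d4 exceeded that at d0 by 1.11 (adjusted p = 0.000816, limma).

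Cldn4, the most abundant claudin of ESCs, was higher in KO on all 3 days. Its Ctrl libraries had 233, 240.1 and 236 TPM at d0, 180.2, 189.6 and 161 at d4 and 415, 401 and 431 at d6. Its KO libraries had 386, 347 and 354 at d0, 225, 218 and 220.2 at d4 and 494, 687 and 653 at d6. Levels dipped at d4 in both genotypes and the groups did not overlap on any day. On the log2 scale KO exceeded Ctrl by 0.61 ± 0.09, 0.32 ± 0.09 and 0.54 ± 0.09 in day order (adjusted p = 8.42e-05, 0.00759 and 0.000101, limma). The d4 call for Cldn4 was lost without Ctrl d0 replicate 1 or 3, Ctrl d4 replicate 1 or 3, Ctrl d6 replicate 1 or KO d4 replicate 1, 2 or 3 (log2 difference 0.26 to 0.34, limma adjusted p at most 0.0451). The share of Cldn4 in claudin TPM fell from 80.9 ± 0.928% to 40.2 ± 2.38% in Ctrl and from 84 ± 0.531% to 36.7 ± 1.4% in KO.

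Cldn3, its neighbour on chromosome 5, rose between d4 and d6 in both genotypes, by 2.34 ± 0.17 on the log2 scale in Ctrl and 2.56 ± 0.17 in KO. At d6 it had 96.3, 95.8 and 81.6 TPM in Ctrl and 86.8, 142 and 148 in KO, a difference of 0.42 ± 0.17 that was not called (adjusted p = 0.0423, limma). The first KO library lay within the Ctrl range and the other 2 lay above it.

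Cldn5, best known as the claudin of endothelium, was a low gene. It had 2.78, 1.70 and 2.23 TPM in Ctrl and 6.44, 6.80 and 7.42 in KO at d4. At d6 Cldn5 had 3.41, 3.70 and 1.03 (Ctrl) against 8.69, 8.10 and 5.72 (KO). At d0 its 3 Ctrl libraries ranged from 0.448 to 4.62 TPM and its KO libraries from 0.632 to 0.746. The difference was 1.30 ± 0.38 at d4 and 1.27 ± 0.38 at d6 (adjusted p = 0.00790 and 0.00776, limma). It rested on 1 to 39 reads per library. Cldn5 reached the 5 TPM of the filter only in KO libraries of d4 and d6. It entered the table through these groups, so its differences and p-values there are read as descriptions. The d4 call for Cldn5 was lost without Ctrl d0 replicate 1, Ctrl d4 replicate 1, 2 or 3, KO d0 replicate 1, 2 or 3, KO d4 replicate 1, 2 or 3 or KO d6 replicate 2 (log2 difference 1.17 to 1.42, limma adjusted p at most 0.0323). The d6 call for Cldn5 was lost without Ctrl d0 replicate 1, Ctrl d4 replicate 3, Ctrl d6 replicate 3, KO d0 replicate 1, 2 or 3, KO d4 replicate 1, 2 or 3 or KO d6 replicate 1 or 2 (log2 difference 0.88 to 1.27, limma adjusted p at most 0.0528). With a pseudocount of 0.1 neither call for Cldn5 held.

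Cldn9 went the other way. It rose in Ctrl from 0.499, 0.594 and 1.32 TPM at d0 to 7.70, 11.2 and 10.3 at d4 and 9.31, 12.5 and 18.6 at d6. In KO it had 1.87, 0.829 and 0.735 at d0, 1.64, 2.96 and 3.66 at d4 and 5.27, 4.59 and 6.89 at d6. The KO libraries were below all Ctrl libraries at d4 and d6, at a log2 difference of -1.54 ± 0.28 (adjusted p = 0.000208, limma) and -1.10 ± 0.28 (adjusted p = 0.00246). Cldn9 reached 5 TPM in fewer than 3 KO libraries, so it passed the filter only with the higher Ctrl libraries. The d6 call for Cldn9 was lost without Ctrl d6 replicate 3 or KO d6 replicate 2 (log2 difference -0.99 to -0.86, limma adjusted p at most 0.0180). Quantile normalization and a pseudocount of 0.1 also removed this call. Cldn12 was also lower in KO at d4 (-0.31 ± 0.09) and d6 (-0.64 ± 0.09), with 6.94 to 25.5 TPM over all libraries, although its d4 value was -0.14 after median-ratio rescaling and no longer called. The d4 call for Cldn12 was lost without Ctrl d4 replicate 1, 2 or 3 or KO d4 replicate 1 or 3 (log2 difference -0.33 to -0.25, limma adjusted p at most 0.0356). Quantile normalization, voom and removal of chromosome medians also removed this call. Cldn20, with 1.36 to 8.11 TPM from 2 to 19 reads, was called on no day.

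Among the other membrane proteins of the tight junction, 3 were higher in KO at d4 and d6 and F11r was lower. Of all genes, 12.7% were higher at d4 and 17.9% at d6, and 32.7% and 34.3% were lower. Crb3, an apical polarity protein of the Crumbs complex, had 3.81, 2.41 and 2.69 TPM in Ctrl and 7.27, 3.79 and 4.25 in KO at d0. It had 6.44, 7.83 and 6.90 in Ctrl and 16.0, 23.4 and 18.1 in KO at d4. At d6 Crb3 had 14.8, 14.7 and 23.2 (Ctrl) against 49.7, 62.9 and 69.0 (KO). The groups overlapped at d0 and not afterwards, when KO was higher by 1.31 ± 0.22 (adjusted p = 0.000117, limma) and 1.75 ± 0.22 (adjusted p = 4.2e-06). This is the gene with 3 CACCTG matches printed above.

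Marveld3, a MARVEL protein related to occludin, was higher in KO at d4 and d6. Its Ctrl libraries had 0.853, 2.03 and 0.980 TPM at d0, 3.10, 3.11 and 2.63 at d4 and 3.53, 2.42 and 3.59 at d6. Its KO libraries had 1.98, 0.623 and 1.26 at d0, 7.78, 10.5 and 10.9 at d4 and 14.5, 21.3 and 19.0 at d6. The difference of 2.20 ± 0.23 at d6 was the largest upward one among the 41 genes on any day (adjusted p = 5.93e-07, limma), after 1.43 ± 0.23 at d4 and -0.01 ± 0.23 at d0. Occludin (Ocln) had 1.72 to 9.59 TPM in Ctrl and 2.32 to 16.5 TPM in KO. It was higher in KO by 0.72 ± 0.17 at d4 and 0.69 ± 0.17 at d6 (adjusted p = 0.00218 and 0.00238, limma). The d4 call for Ocln was lost without Ctrl d4 replicate 3 or KO d4 replicate 2 (log2 difference 0.49 to 0.66, limma adjusted p at most 0.0130). The d6 call for Ocln was lost without Ctrl d6 replicate 1 or 2 or KO d6 replicate 3 (log2 difference 0.59 to 0.66, limma adjusted p at most 0.0148).

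F11r, which encodes the adhesion molecule JAM-A, was the most abundant of these genes and was lower in KO. It had 94.3, 101 and 89.1 TPM in Ctrl and 89.9, 82.0 and 89.3 in KO at d0, where the groups overlapped. At d4 it had 115, 117 and 135 in Ctrl and 65.3, 74.1 and 60.8 in KO. At d6 F11r had 266, 244 and 264 (Ctrl) against 126, 125 and 138 (KO). KO libraries lay below all Ctrl libraries on both days, at a log2 difference of -0.87 ± 0.08 (adjusted p = 2.37e-07, limma) and -0.99 ± 0.08 (adjusted p = 2.39e-08). From d0 to d4 it rose in Ctrl by 0.36 ± 0.08 and fell in KO (-0.38 ± 0.08). Marveld2 (tricellulin, of the points where 3 cells meet) was higher in KO at d0 by 0.71 ± 0.17 (adjusted p = 0.00360, limma), with -0.50 ± 0.17 at d4 and 0.53 ± 0.17 at d6 not called, and its d0 values were 0.705 to 1.14 TPM in Ctrl and 1.36 to 3.06 in KO. The d0 call for Marveld2 was lost without Ctrl d0 replicate 1 or KO d0 replicate 2 or 3 (log2 difference 0.55 to 0.65, limma adjusted p at most 0.0234). Voom and a pseudocount of 5 also removed this call.

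**Figure D3:**
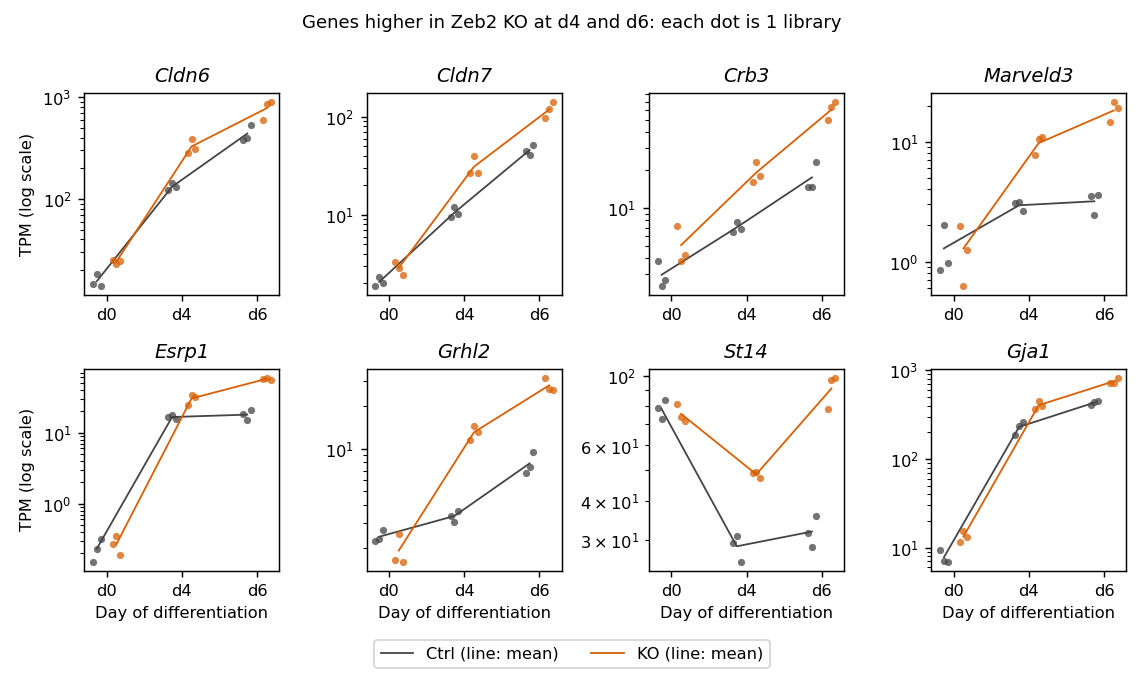
TPM (log y axis) at d0, d4 and d6 (x axis) of 8 genes that were higher in KO at d4 and d6, with 1 dot per library and lines through the mean of 3 libraries, Ctrl in grey and KO in orange. The dots of both genotypes lie close at d0 for most of these genes and separate at d4 and d6, where every KO dot lies above every Ctrl dot.

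Of the 4 plaque genes, 3 were lower in KO at d0 and 2 at d4, and 3 were higher at d6. The background was 16.4% of all genes lower at d0, 32.7% lower at d4 and 17.9% higher at d6. Cgn (cingulin, which links the plaque to actomyosin) had 5.65, 6.20 and 5.72 TPM in Ctrl and 1.84, 1.54 and 1.69 in KO at d0. At d4 it had 23.4, 26.8 and 25.0 in Ctrl and 18.9, 22.1 and 20.8 in KO. At d6 Cgn had 27.5, 25.5 and 34.6 (Ctrl) against 45.1, 54.3 and 45.9 (KO). KO libraries were thus all below Ctrl at d0 and all above it at d6. The difference was -1.35 ± 0.11 at d0 (adjusted p = 2.69e-07, limma), -0.27 ± 0.11 at d4, not called, and 0.72 ± 0.11 at d6 (adjusted p = 4.09e-05).

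Tjp1, a scaffold of the plaque, had 94.0, 99.2 and 101 TPM in Ctrl and 79.7, 82.5 and 75.4 in KO at d0 and 180.5, 167 and 179 (Ctrl) against 123, 129 and 129 (KO) at d4. At d6 Tjp1 had 162, 174 and 188 (Ctrl) against 156, 152 and 162 (KO). KO was below Ctrl without overlap at d0 and d4, at a log2 difference of -0.31 ± 0.06 and -0.46 ± 0.06 (adjusted p = 0.000536 and 6.1e-06, limma), and at d6 the groups overlapped. Tjp3 had 41.3, 43.4 and 49.9 TPM in Ctrl and 72.7, 92.9 and 86.5 in KO at d6, a difference of 0.89 ± 0.17 (adjusted p = 0.000283, limma). Its differences at d0 and d4, 0.15 ± 0.17 and 0.40 ± 0.17, were not called, and its libraries ran from 16.4 to 25.6 TPM at d0 and from 25.7 to 46.4 at d4.

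The desmosome genes held the largest difference of the 41 genes on any day. Desmoplakin (Dsp), the plaque protein that grips the keratin filaments, peaked at d4 in Ctrl and had its lowest level at d4 in KO. Its TPM in Ctrl was 52.5, 60.4 and 63.5 at d0, 155, 149 and 191 at d4 and 75.8, 74.8 and 90.7 at d6. In KO it was 78.7, 80.5 and 75.1 at d0, 18.4, 16.9 and 15.1 at d4 and 25.5, 29.3 and 28.4 at d6. The lowest Ctrl library at d4 was above the highest KO library by many times its level. From d0 to d4 it rose by 1.47 ± 0.11 on the log2 scale in Ctrl and fell in KO (-2.16 ± 0.11). The difference between genotypes was -3.22 ± 0.11 at d4 (adjusted p = 2.86e-12, limma) and -1.50 ± 0.11 at d6 (adjusted p = 4.96e-09), while at d0 KO was higher by 0.41 ± 0.11 (adjusted p = 0.00591). The d0 call for Dsp was lost without Ctrl d0 replicate 1 or 2 or KO d0 replicate 1, 2 or 3 (log2 difference 0.33 to 0.44, limma adjusted p at most 0.0351). Quantile normalization also removed this call.

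Desmocollin (Dsc2), one of the desmosomal cadherins, was lower in KO too. Its Ctrl libraries had 0.838, 1.09 and 0.620 TPM at d0, 5.92, 6.86 and 6.83 at d4 and 12, 13.4 and 15.2 at d6, and its KO libraries had 0.778, 0.777 and 0.718 at d0, 1.6, 2.19 and 1.86 at d4 and 4.35, 6.33 and 6.55 at d6. The groups overlapped at d0 and parted at a log2 difference of -1.39 ± 0.15 at d4 and -1.12 ± 0.15 at d6 (adjusted p = 1.64e-06 and 8.88e-06, limma). Desmoglein (Dsg2), the other cadherin, fell with time in both genotypes, from 65.6, 67.9 and 61.2 TPM in Ctrl and 98.4, 99.3 and 88.3 in KO at d0 to 26.1, 26.3 and 33.3 and 33.2, 32.4 and 30.7 at d6. It was called higher in KO at d0 (0.55 ± 0.09, adjusted p = 0.000195, limma), and -0.21 ± 0.09 at d4 and 0.17 ± 0.09 at d6 were not called.

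Plakoglobin (Jup), shared by desmosomes and adherens junctions, fell in Ctrl from 88.9, 79.6 and 90.2 TPM at d0 to 60.8, 62.3 and 58.0 at d4 and 33.3, 32.6 and 35.3 at d6. In KO it had 108, 115 and 98.5 at d0, 65.4, 58.8 and 68.3 at d4 and 48.9, 68.4 and 63.6 at d6, so that all KO libraries lay above Ctrl at d6, by 0.81 ± 0.10 (adjusted p = 3.66e-06, limma). Plakophilin (Pkp2) rose in both genotypes, in Ctrl from 14.0, 15.1 and 17.7 TPM at d0 to 56.6, 53.9 and 63.9 at d6 and in KO from 11.5, 8.96 and 10.4 to 87.5, 83.8 and 79.3. It was lower in KO at d0 (-0.55 ± 0.11, adjusted p = 0.00100, limma) and higher at d6 (0.52 ± 0.11, adjusted p = 0.000786), with 24.3 to 28.0 TPM in Ctrl and 28.8 to 37.7 in KO at d4. The d0 call was lost when chromosome medians were removed (-0.40). Summed over the 5 genes, desmosome mRNA was 315 ± 17.7 TPM (Ctrl) against 165 ± 1.55 (KO) at d4, then 214 ± 20.8 against 209 ± 10.4 at d6 (mean ± SD, n = 3).

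Of the 7 connexins, Gja1 was higher in KO on all 3 days, and at d6 5 were lower and 1 was not called. Gja1 (Cx43), the most widespread connexin, rose in Ctrl from 9.39, 7.05 and 6.94 TPM at d0 to 188, 238 and 264 at d4 and 403, 439 and 454 at d6. In KO it rose from 11.5, 15.4 and 13.1 at d0 to 367, 449 and 395 at d4 and 726, 712 and 817 at d6. KO was higher without overlap on all days, by 0.71 ± 0.13 at d0, 0.82 ± 0.13 at d4 and 0.80 ± 0.13 at d6 (adjusted p = 0.000461, 7.23e-05 and 6.39e-05, limma), and the difference did not change detectably over the course (adjusted p = 0.854, moderated F test in limma). The d0 call was lost with voom on the recovered reads (adjusted p = 0.0241). As a share of summed connexin TPM, Gja1 went from 0.992 ± 0.122% to 37.1 ± 5.65% and 73.4 ± 2.92% in Ctrl, and from 2.08 ± 0.251% to 77.4 ± 3.74% and 91.1 ± 1.35% in KO. The total of the 7 connexins was 619 ± 25.6 TPM (Ctrl) against 521 ± 28.6 (KO) at d4, then 589 ± 19.5 against 824 ± 50.2 at d6.

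Gjb5 (Cx31.1) fell from d0 to d4 in both genotypes. It had 75.7, 70.7 and 67.5 TPM in Ctrl and 52.6, 42.2 and 46.2 in KO at d0 and 31.8, 29.6 and 29.8 (Ctrl) against 14.9, 8.55 and 9.56 (KO) at d4. At d6 Gjb5 had 22.8, 21.4 and 22.1 (Ctrl) against 5.31, 10.5 and 9.92 (KO). KO lay below Ctrl without overlap on each day and was called at d4 (-1.42 ± 0.20, adjusted p = 1.66e-05, limma) and d6 (-1.32 ± 0.20, adjusted p = 2.23e-05).

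Gjb2 (Cx26) rose late in Ctrl. Its TPM was 0.919, 1.22 and 1.97 in Ctrl and 2.10, 1.06 and 1.45 in KO at d4. At d6 Gjb2 had 9.87, 8.81 and 6.76 (Ctrl) against 1.83, 2.5 and 1.99 (KO). From d0 to d4 it was called to rise in KO (0.80 ± 0.21, adjusted p = 0.00347, limma) and not in Ctrl (0.13 ± 0.21). The KO libraries had 0 to 5 reads of Gjb2 at d0. Between d4 and d6 it rose in Ctrl by 2.01 ± 0.21, and the change of 0.31 ± 0.21 in KO was not called. KO was lower at d6 at a log2 difference of -1.60 ± 0.21 (adjusted p = 7.13e-06, limma), and at d0 it had 0.894 to 1.45 TPM in Ctrl and 0.146 to 0.743 in KO. Gjc1 (Cx45) stayed level in Ctrl, with 63.9, 54.3 and 55.4 TPM at d0 and 59.1, 62.5 and 57.9 at d6, and had 43.0, 54.0 and 42.6 in KO at d0 and 40.5, 40.6 and 28.4 at d6. It was lower in KO at d4 at a log2 difference of -0.50 ± 0.12 and at d6 at a log2 difference of -0.72 ± 0.12 (adjusted p = 0.00210 and 7.04e-05, limma), and the d4 call was lost after median-ratio rescaling (-0.33). The d4 call for Gjc1 was lost without KO d4 replicate 2 (log2 difference -0.46, limma adjusted p at most 0.0101). Quantile normalization and removal of chromosome medians also removed this call. Gja4, with 1.25 to 9.64 TPM, was called between genotypes on no day and fell from d0 to d4 in both.

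**Figure D4:**
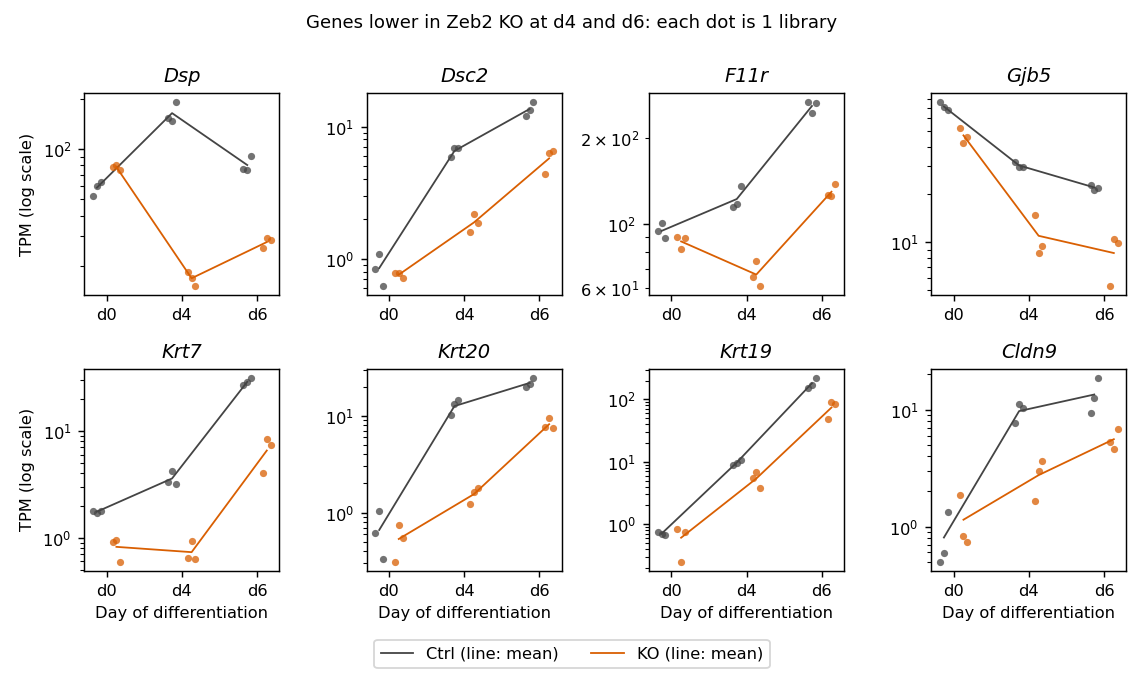
TPM (log y axis) at d0, d4 and d6 (x axis) of 8 genes that were lower in KO at d4 and d6, with 1 dot per library and lines through the mean of 3 libraries, Ctrl in grey and KO in orange. Dsp rises in Ctrl and falls in KO between d0 and d4, Krt20 and Krt7 rise less in KO, and every KO dot lies below every Ctrl dot at d4 and d6.

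Simple epithelial keratins were induced strongly in both genotypes. Krt8 and Krt18, the first keratin pair of the embryo, rose from d0 to d6 together. In the Ctrl libraries Krt8 had 4.37, 1.89 and 4.04 TPM at d0, 20.3, 25.6 and 26.7 at d4 and 226, 303 and 374 at d6. Krt18 in Ctrl had 6.65, 6.90 and 15.2 at d0, 66.5, 84.5 and 81.9 at d4 and 786, 884 and 1212 at d6. In KO, Krt8 had 6.60, 7.25 and 4.09 at d0, 20.9, 24.5 and 21.7 at d4 and 162, 375 and 357 at d6. Its genotypes overlapped on every day and no difference was called (0.68 ± 0.30, -0.10 ± 0.30 and -0.08 ± 0.30). Krt18 in KO had 4.25, 3.74 and 4.27 at d0, 119.9, 154 and 142 at d4 and 858, 1595 and 1665 at d6. It was lower in KO at d0 (-0.97 ± 0.27, adjusted p = 0.00944, limma), above Ctrl without overlap at d4 but not called (0.83 ± 0.27, adjusted p = 0.0150), and overlapping at d6 (0.48 ± 0.27). The d0 call for Krt18 was lost without Ctrl d0 replicate 3, Ctrl d4 replicate 1, 2 or 3, Ctrl d6 replicate 1 or 2, KO d0 replicate 1, 2 or 3, KO d4 replicate 1, 2 or 3 or KO d6 replicate 2 (log2 difference -0.99 to -0.61, limma adjusted p at most 0.0569). Median-ratio rescaling, quantile normalization, voom, a pseudocount of 5 and removal of chromosome medians also removed this call.

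KO d6 replicate 1 stood below the other 2 KO libraries of its day for Krt8, Krt18 and Krt19 and for Cldn3, Cldn4 and Cldn6, and Ctrl d6 replicate 3 was the highest Ctrl library of its day for the 3 keratins. The ratio of Krt18 to Krt8 within a library removes a level that both share. It was 1.52, 3.65 and 3.76 in Ctrl and 0.645, 0.516 and 1.04 in KO at d0. These d0 ratios rested on 11 to 54 reads of Krt8 and 16 to 66 reads of Krt18 per library. At d4 the ratio was 3.28, 3.3 and 3.07 in Ctrl and 5.73, 6.30 and 6.53 in KO. At d6 it was 3.48, 2.91 and 3.24 in Ctrl and 5.29, 4.25 and 4.66 in KO. The groups did not overlap on any day, below Ctrl at d0 and above it at d4 and d6. The exact two-sided permutation test gave p = 0.1 on each of the 3 days, the smallest value that 3 against 3 libraries allow, so the comparison cannot pass 0.05. The mean ratio at d6 was 4.74 ± 0.523 in KO and 3.21 ± 0.282 in Ctrl (SD, n = 3).

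**Figure D5:**
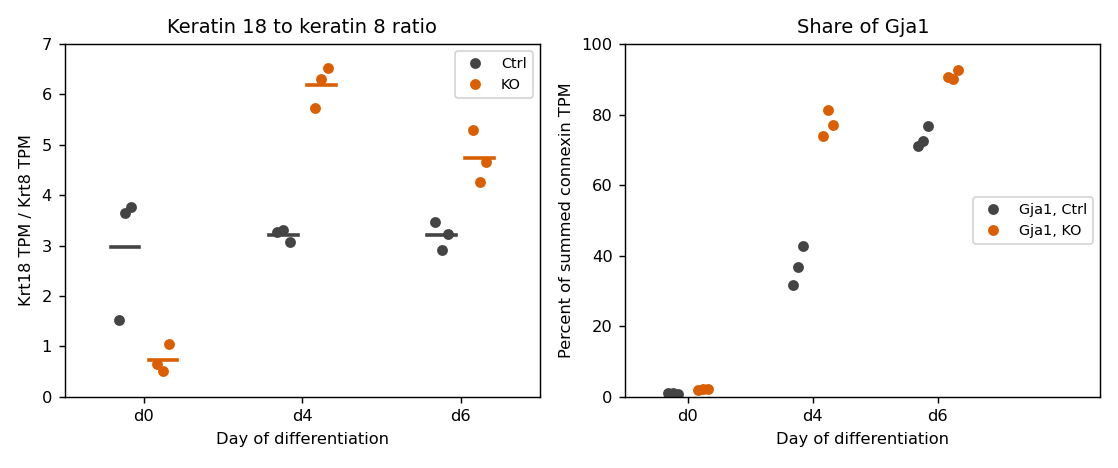
Left, the ratio of Krt18 to Krt8 TPM (y axis) in each library at d0, d4 and d6 (x axis), with bars at the group means. Right, the percentage of summed connexin TPM (y axis) taken by Gja1. The ratio is lower in KO at d0 and higher at d4 and d6, and the share of Gja1 is higher in KO than in Ctrl on each day.

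The other keratins of simple epithelia were induced less in KO. Krt19 had 0.751, 0.695 and 0.664 TPM in Ctrl and 0.832, 0.249 and 0.738 in KO at d0. It had 8.84, 9.61 and 10.7 in Ctrl and 5.54, 6.82 and 3.79 in KO at d4. At d6 Krt19 had 153, 169.7 and 219 (Ctrl) against 47.8, 89.7 and 83.9 (KO). KO was lower without overlap at d4 and d6, at a log2 difference of -0.77 ± 0.23 (adjusted p = 0.00845, limma) and -1.32 ± 0.23 (adjusted p = 0.000101). The d4 call for Krt19 was lost without Ctrl d0 replicate 1, 2 or 3, Ctrl d4 replicate 1, 2 or 3, Ctrl d6 replicate 2, KO d0 replicate 3 or KO d4 replicate 1 or 3 (log2 difference -0.83 to -0.58, limma adjusted p at most 0.0499). Median-ratio rescaling, quantile normalization, voom, removal of chromosome medians and pseudocounts of 0.1 and 5 also removed this call. Krt7, a type II keratin of simple and glandular epithelia, had 1.77, 1.71 and 1.78 TPM in Ctrl and 0.914, 0.957 and 0.596 in KO at d0. It had 3.33, 4.24 and 3.20 (Ctrl) against 0.642, 0.928 and 0.629 (KO) at d4. At d6 Krt7 had 26.8, 28.5 and 31.2 (Ctrl) against 4.00, 8.33 and 7.33 (KO), lower in every KO library at a log2 difference of -1.40 ± 0.19 (adjusted p = 1.33e-05, limma) and -2.03 ± 0.19 (adjusted p = 1.34e-07). Krt7 rose from d0 to d4 in Ctrl (0.73 ± 0.19), and the KO value was -0.07 ± 0.19, a difference between the genotypes of -0.80 ± 0.27 that was not called (adjusted p = 0.0205, limma). By d6 the difference had moved from that at d0 by -1.43 ± 0.27 (adjusted p = 0.000281). Krt7 reached 5 TPM in fewer than 3 KO libraries, so it passed the filter only with the higher Ctrl libraries.

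Krt20, a type I keratin known from gut lining, had 0.620, 1.03 and 0.329 TPM in Ctrl and 0.309, 0.741 and 0.548 in KO at d0 and 10.2, 13.2 and 14.6 (Ctrl) against 1.22, 1.62 and 1.82 (KO) at d4. At d6 Krt20 had 20.02, 21.3 and 24.7 (Ctrl) against 7.68, 9.51 and 7.46 (KO). The difference was -2.41 ± 0.18 at d4 (adjusted p = 2.09e-08, limma) and -1.32 ± 0.18 at d6 (adjusted p = 8.53e-06), and it was smaller at d6 than at d4 by 1.09 (adjusted p = 0.00504). Krt17, a keratin of basal and appendage epithelium, had 4.31, 6.41 and 5.72 TPM in Ctrl and 3.46, 2.45 and 3.40 in KO at d0 and 6.18, 5.68 and 4.75 (Ctrl) against 16.1, 13.7 and 12.9 (KO) at d4. At d6 Krt17 had 1.43, 1.6 and 2.43 (Ctrl) against 4.47, 3.69 and 4.83 (KO). KO was below Ctrl at d0 (-0.66 ± 0.17, adjusted p = 0.00604, limma) and above it at d4 (1.22 ± 0.17, adjusted p = 1.94e-05) and d6 (0.93 ± 0.17, adjusted p = 0.000179), each time without overlap. These values rested on 5 to 74 reads. The d0 call for Krt17 was lost without Ctrl d0 replicate 2 or 3 or KO d0 replicate 2 or 3 (log2 difference -0.71 to -0.54, limma adjusted p at most 0.0352). Quantile normalization, voom and removal of chromosome medians also removed this call.

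Krt42, a type I keratin, was the main keratin of ESCs at d0 and fell in both genotypes at each step. It had 64.5, 72.2 and 69.2 TPM in Ctrl and 54.2, 46.2 and 55.1 in KO at d0 and 12.1, 15.0 and 13.2 (Ctrl) against 17.2, 10.0 and 16.1 (KO) at d4. At d6 Krt42 had 0.997, 1.16 and 1.90 (Ctrl) against 3.27, 2.64 and 1.5 (KO). No difference between genotypes was called. It made up 70.5 ± 4.66% of summed keratin TPM at d0 in Ctrl and 69.4 ± 2.78% in KO, against 0.0877 ± 0.0114% and 0.164 ± 0.118% at d6, when Krt18 made up 63.3 ± 1.28% in Ctrl and 77.4 ± 1.01% in KO. Krt10 had 5.16 to 22 TPM over all libraries and was lower in KO at d6 at a log2 difference of -0.73 ± 0.21 (adjusted p = 0.00650, limma), although the groups overlapped, and the call was lost after median-ratio rescaling. The d6 call for Krt10 was lost without Ctrl d6 replicate 1 or 2 or KO d6 replicate 2 or 3 (log2 difference -0.74 to -0.56, limma adjusted p at most 0.0405). Quantile normalization, voom and removal of chromosome medians also removed this call.

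Several of these keratins are also made by visceral endoderm, an epithelium that forms on EBs, so its markers are given beside them. Of 15 such markers, 11 were in the table. At d6, 1 of them was higher in KO (Rhox5) and 9 were lower, against 17.9% and 34.3% of all genes. The sum of the 11 was 698 to 880 TPM in Ctrl and 916 to 1162 in KO at d6, most of it Rhox5, which ESCs also expressed. The other 10, set apart after their values were seen, summed to 226, 224 and 368 TPM in the Ctrl libraries at d6 and to 58.4, 94.6 and 65.3 in the KO libraries. At d0 they summed to 5.84 to 7.09 TPM over both genotypes, and 7 to 9 of the 11 were below 1 TPM in each library. Ctrl d6 replicate 3 was thus highest, and KO d6 replicate 1 lowest within its group, both for these 10 markers and for Krt8, Krt18 and Krt19. The 7 trophectoderm markers in the table (of 10) summed to 95 to 107 TPM in Ctrl and 66.2 to 77.7 in KO at d6, and the 4 surface ectoderm markers (of 8) to 41.2 to 45.1 and 17.0 to 20.4. The part of such cells in the keratin differences was not tested.

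Of the 4 regulators, 3 were higher in KO at d4 and d6 and none was called at d0. The background was 12.7% of all genes higher at d4 and 17.9% at d6. Grhl2, a grainyhead transcription factor that activates epithelial junction genes, had 2.25, 2.30 and 2.66 TPM in Ctrl and 1.66, 2.5 and 1.6 in KO at d0. It had 3.38, 3.05 and 3.65 (Ctrl) against 11.5, 14.4 and 13.1 (KO) at d4. At d6 Grhl2 had 6.76, 7.41 and 9.40 (Ctrl) against 31.2, 26.1 and 26.0 (KO). The d4 values of KO already lay above the d6 values of Ctrl. The difference was 1.68 ± 0.14 at d4 and 1.71 ± 0.14 at d6 (adjusted p = 1.16e-07 and 4.69e-08, limma), and from d0 to d4 Grhl2 rose in KO by 2.27 ± 0.14 where the Ctrl value, 0.36 ± 0.14, was not called.

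Esrp1, which directs epithelial splicing, was near 0 at d0 and was switched on in both genotypes, with no called change after d4 in Ctrl. It had 0.152, 0.232 and 0.316 TPM in Ctrl and 0.270, 0.345 and 0.191 in KO at d0, from 5 to 15 reads. At d4 it had 16.6, 17.5 and 15.8 in Ctrl and 24.7, 34.4 and 32.2 in KO. At d6 Esrp1 had 18.1, 15.2 and 20.6 (Ctrl) against 57.8, 58.9 and 55.8 (KO). Between d4 and d6 it rose in KO by 0.91 ± 0.13 and the Ctrl value was 0.10 ± 0.13, and the difference between genotypes went from 0.82 ± 0.13 to 1.63 ± 0.13 (adjusted p = 5.69e-05 and 1.82e-08, limma). Its paralog Esrp2 fell from d0 to d4 in both genotypes and was called between them on no day, with 4.45 to 11.4 TPM. St14 (matriptase, a membrane protease of epithelia) fell in Ctrl from 78.8, 72.7 and 83.5 TPM at d0 to 29.5, 31.1 and 25.6 at d4 and stayed at 31.5, 28.5 and 35.9 at d6. In KO it had 81.3, 73.6 and 71.7 at d0, 49.0, 49.3 and 47.4 at d4 and 78.2, 96.6 and 98.2 at d6, so that it dipped and returned. The difference was 0.74 ± 0.10 at d4 and 1.48 ± 0.10 at d6 (adjusted p = 1.31e-05 and 3.09e-09, limma).

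Time moved most of these genes in both genotypes. From d0 to d4, 23 of the 41 rose and 9 fell in Ctrl (32 in all), against 45.1% and 22.3% of all genes (67.4%), and 22 rose and 12 fell in KO, against 35.8% and 20.9%. From d4 to d6, 19 rose and 7 fell in Ctrl, against 22.6% and 21.5%, and 25 rose and 4 fell in KO, against 21.5% and 19.9%. From d0 to d4 in Ctrl, median-ratio rescaling gave 17 rising and 11 falling genes, against 32.8% and 33.6% of all genes, and quantile normalization 16 and 13, against 31.7% and 29.3%. All 5 of the tight junction membrane proteins other than claudins rose from d4 to d6 in KO and 3 did in Ctrl, and all 4 plaque genes rose in KO while 1 rose and 1 fell in Ctrl. The course since d0 differed between the genotypes for 22 genes (moderated F test, adjusted p below 0.01), 12 upwards in KO by d6 and 10 downwards, against 48.7% of all genes (20.2% and 28.5%). Between d0 and d4 the difference changed for 18 genes, against 36.1% of all genes. The difference at d6 exceeded that at d4 for 9 genes and was below it for 1 (Gjb2), against 7.10% and 6.29% of all genes. Cgn, Dsp, Esrp1, Jup, Krt20, Marveld2 and St14 were among the 9. Gjb2 entered the table through the Ctrl libraries of d6 alone.

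Several of the genes lie side by side in the genome (GRCm38, GENCODE M21). Cldn6 (chr17:23679249-23682446, plus strand) and Cldn9 (chr17:23682584-23684026, minus strand) converge with 137 bases between them and differed in opposite directions, with Cldn6 higher and Cldn9 lower in KO at d4 and d6. Krt8 and Krt18 lie 23.7 kb apart on chromosome 15, Cldn4 and Cldn3 39.3 kb apart on chromosome 5, and Ocln and Marveld2 43.2 kb apart on chromosome 13. Krt17 and Krt42, 1.9 kb apart on chromosome 11, followed different courses, since Krt17 in KO rose from d0 to d4 (1.89 ± 0.17) while Krt42 fell (-1.80 ± 0.21).

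Other genes of adhesion and polarity were counted from a list of 44 symbols, of which 32 were in the table (some genes are listed under 2 names). At d6, 7 of the 32 were higher in KO, 14 were lower and 11 were not called, against 17.9% higher and 34.3% lower over all genes, with a median difference of -0.04. The 7 include E-cadherin (Cdh1), with a mean of 561 TPM in KO and 201 in Ctrl and a difference of 1.48 ± 0.08, and Epcam, with 842 and 281 TPM and 1.58 ± 0.15. Among the 14, N-cadherin (Cdh2) was lower by 4.87 on the log2 scale, at 1.96 TPM in KO and 85.2 in Ctrl, and Crb2, a paralog of Crb3, had 2.52 TPM in KO and 52.3 in Ctrl. From a list of 24 epithelial transcription factors, repressors and proteases, 19 were in the table, and at d6 3 were higher and 11 lower, with a median difference of -0.83. The list mixes epithelial factors with Zeb2 itself, the gene removed in KO, and with Zeb1, Snai1, Snai2 and Twist1. Its counts and median therefore do not describe epithelial factors alone. Ovol2 had a mean of 12.4 TPM in KO and 3.62 in Ctrl, and Zeb1, the paralog of Zeb2, had 2.68 and 15.5. Adjusted p was below 0.01 (limma) for each gene given here with TPM values.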

How the data were processed

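RNA of 18 cultures was sequenced as single reads of 36 bp. The authors placed them on GRCm38 by TopHat2 2.0.13, obtained counts per Ensembl gene by featureCounts 1.4.6 and deposited TPM values (transcripts per 1e+06) of genes with at least 5 TPM in at least 3 libraries, less the 20% that varied least. The deposited table had 11046 lines, of which 81 repeated lines were left out. The authors also deposited 3 score columns per gene, headed as variance, standard deviation and variability, not used here. The column headed as standard deviation holds the variance over the mean. Because the main table holds TPM and no counts, limma 3.58.1 (R 4.3.3) on log2(TPM + 1) replaced the authors' DESeq2, with a mean for each of 6 groups, a trended prior and Benjamini-Hochberg adjustment over 10965 genes. A log2 difference on this scale understates the change of low genes. The TPM values of all 10965 genes were whole numbers of reads plus 1 times a library and a gene factor (relative tolerance 0.0001), so reads were recovered and tested with voom. This gave 1401 higher and 1565 lower genes at d0, 2053 and 2883 at d4, and 2484 and 3349 at d6. Counting strand is not given in the sources used here, so overlapping or antisense reads cannot be told apart. The fit was tested on simulated data.

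Groups came from the labels. Library values are given for genes with an absolute log2 difference above 1 that passed on any day or with a group mean of at least 50 TPM, and ranges for the others. Some of the 41 genes enter the counts and sums but are not reported here. The members and gene lists were chosen with earlier results of these data known. Positions and exons are from GENCODE M21 and promoters from RefSeq (GRCm38.p6). Alternatives were pseudocounts of 0.1 and 5, a mean of at least 10 TPM, median-ratio and quantile scaling, voom, chromosome medians, a replicate block, an unadjusted threshold with a fold limit, and leaving out each library. Statements on depth cover counting error only.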

Additional observations from a re-analysis of the deposited data

Results flagged for a closer look

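For 12 genes the difference between KO and Ctrl was larger than 1 on the log2 scale in its change from d0 to d4 and passed the test of that change (limma, adjusted p below 0.01, the same libraries that the comparisons by day use). The background of changed genes was 36.1% without the size limit. With a change above 1 and an unadjusted p below 0.01, a looser test, 4.62% of all genes changed upwards and 9.30% downwards. The change was upwards in KO for Cgn (1.08), Cldn5 (2.09), Cldn7 (1.11), Grhl2 (1.91), Krt17 (1.87), Krt18 (1.79) and Marveld3 (1.44). It was downwards for Cldn9 (-1.77), Dsc2 (-1.32), Dsp (-3.62), Krt20 (-2.31) and Marveld2 (-1.21). Adjusted p ran from 1.52e-10 for Dsp to 0.00421 for Cldn5. Cldn5 and Marveld3 entered the table through KO libraries of d4 and d6 alone.

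From d4 to d6 the difference changed in this way for 4 genes, against 13.4% of all genes without the size limit. With the size limit and an unadjusted p below 0.01, 3.36% of all genes changed upwards and 3.52% downwards. It rose for Dsp (1.72), Krt20 (1.09) and Marveld2 (1.03) and fell for Gjb2 (-1.70), with adjusted p from 6.12e-07 for Dsp to 0.00581 for Marveld2 (limma). Dsp and Krt20 thus moved down in KO relative to Ctrl by d4 and part of the way back by d6. Marveld2 also moved down by d4 and back by d6. Its difference at d6 was not called apart from that at d0 (-0.18, adjusted p = 0.545, limma). Gjb2 entered the table through the Ctrl libraries of d6 alone, so its fall is read as a description.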

How the results depend on the processing

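Of 70 calls of a gene on a day, 48 held under every alternative run (26, or 25 for genes with a mean below 10 TPM), 22 were lost under at least 1, and none reversed with a call. Of 53 results that were not called, 19 were called under at least 1 alternative, among them Krt18 at d4 and Marveld2 at d6. Requiring a log2 difference above 1 with an unadjusted p below 0.01 gave 0 higher and 1 lower gene at d0, 7 and 7 at d4, and 7 and 9 at d6, against 1.79% and 2.81%, 2.18% and 7.65%, and 4.66% and 11% of all genes. Under that rule 14 genes rose and 5 fell from d0 to d4 in Ctrl (21.3% and 6.47% of all genes), and 4 fell from d4 to d6 (4.58%). In KO, 6 fell from d0 to d4 (7.13%) and 16 rose from d4 to d6 (6.61%). A mean of at least 10 TPM, which leaves 27 of the 41 genes, gave 7 higher and 9 lower at d4 (14.6% and 33.4% of the 8396 genes left). It gave 8 lower at d6 (34.2%), 14 rising from d0 to d4 in KO (35.4%) and 13 with a different course (22.6% upwards and 28.0% downwards). Removing chromosome medians left 3 lower genes at d0, and the cause was not tested.

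Leaving out 1 library at a time gave 3 to 7 higher and 5 to 9 lower genes at d0, with 3 higher without Ctrl d0 replicate 1, KO d0 replicate 2 or KO d0 replicate 3. It gave 9 to 13 higher and 12 to 15 lower at d4, and 16 to 18 higher and 12 to 14 lower at d6. The genes that rose and fell from d0 to d4 numbered 19 to 23 and 8 to 9 in Ctrl and 21 to 22 and 12 to 13 in KO. Those from d4 to d6 numbered 17 to 19 and 7 in Ctrl and 24 to 25 and 4 in KO, and 21 to 25 genes had a different course. The difference in the Krt18 to Krt8 ratio at d6, 1.53, ranged from 1.25 to 1.77.

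The replicate numbers were not taken to pair the samples, because not every pair of libraries with the same number had deviations correlated above 0.1. Of 45 pairs 29 did, 13 of 15 with number 1, all 15 with number 2 and 1 of 15 with number 3 (range -0.09 to 0.34). The fit with the replicate number as a block gave 6 higher and 7 lower genes at d0 (9.94% and 15.4% of all genes). It gave 12 and 12 at d4 (12.4% and 31.9%), and 18 and 14 at d6 (17.5% and 33.8%). The calls of Cldn12, Cldn4 and Krt19 at d4 were lost under this fit. With 3 libraries a group, values of fewer than about 10 reads (such as those of Cldn5 and Cldn20 in some libraries and Gjb2 at d0) limit what can be seen.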
